A study of Mus musculus with 14 samples.

Results

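The genes described here are 10 genes of the major histocompatibility complex (MHC) class I presentation pathway, namely *H2-K1*, *H2-D1*, *H2-Q4*, *H2-Q7*, *H2-T23*, *B2m*, *Tap1*, *Tap2*, *Tapbp* and *Nlrc5*. They were picked by name from a table of read counts for 55487 mouse genes, and all 10 were present and had enough reads to be tested. MHC class I molecules carry peptides from inside a cell to its surface, where cytotoxic T cells and natural killer cells read them. Each molecule is a heavy chain paired with the light chain beta-2-microglobulin, and it is loaded in the endoplasmic reticulum with peptides that the transporter associated with antigen processing (TAP) brings in and that tapasin helps to fit. In liver, hepatocytes, Kupffer cells and sinusoidal endothelial cells all make class I molecules, interferons raise their production, and NLRC5 is the nuclear coactivator that drives the class I genes.

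The RNA came from the right liver lobe of 14 male TALLYHO mice, a polygenic model of type 2 diabetes, aged 8 to 12 weeks. Of these, 7 mice (G1, G4, G6, G9, G10, G11 and G13) were gavaged with vehicle (water) and 7 mice (G2, G3, G5, G7, G8, G12 and G14) with 20 mg/kg indole, a bacterial metabolite of tryptophan. Both groups were dosed 2 times a day on 7 days, had 2 further doses between the metabolic tests, and were killed on day 11. Strand-specific libraries of polyadenylated RNA were sequenced, 1 per mouse, and the comparison asked how sub-chronic indole changed the liver transcriptome of diabetic mice.

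The total count per mouse lay between 15197498 (indole mouse G8) and 21060376 (vehicle mouse G13). The labels give neither a batch nor a pairing of mice, and they do not say whether mice shared a litter or cage. The *p* values set group differences against the spread between these mice, and they treat the mice as independent. No libraries of a group were as alike as sampling noise would give (lowest chi-square per degree of freedom 16.3). The hepatocyte markers summed to 78501 to 98602 CPM (read counts scaled for library size by TMM normalisation) in vehicle mice and 69950 to 105150 CPM in indole mice, led by albumin (*Alb*). In a piece of whole liver, more cells of a type and more RNA per cell cannot be told apart. The reads were aligned to the genome of C57BL/6J, another strain, and class I heavy chain genes are polymorphic and close copies of each other, so their levels carry an uncertainty that these counts do not show.

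The promoters of class I genes are known for a short module that NLRC5 reaches through DNA-binding partners, with an X2 box of the CRE type and a Y box that is an inverted CCAAT, and for an upstream element read by interferon regulatory factors. RefSeq promoter windows of 300 bases on GRCm38.p6, the build of the counts, running from 250 bases before to 50 bases after the start of transcription, were found for 8 of the 10 genes. Both strands were searched for AANNGAAA, the core of interferon response elements, and for TGACG followed after 19 or 20 bases by ATTGG, a pair that contains the CCAAT motif. The pair was found in 43 of 32851 mouse promoter windows, or 0.131%, and AANNGAAA in 23.9%. The single letters TGACG were found in 20.8% and CCAAT in 37.4% of the windows. The pair was present in 4 of the 8 genes (*H2-K1*, *H2-D1*, *H2-Q7* and *B2m*), and AANNGAAA in 6, those 4 together with *H2-Q4* and *H2-T23*. The windows of *Tap1* and *Tapbp* held neither of these, and *Tap2* and *Nlrc5* had no entry. The heavy chain genes are copies of a common ancestor, so their shared letters are not independent of each other, whereas *B2m* lies on another chromosome.

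The following stretches are shown because *H2-D1*, *H2-K1*, *H2-Q7* and the light chain gene *B2m* all carry AANNGAAA, on either strand, upstream of the pair. *H2-Q4* and *H2-T23*, which lack the pair, are shown beside them. Each is read 5′ to 3′ on the strand of the gene and ends before the start of transcription, and capitals mark AANNGAAA (or TTTCNNTT, its reverse complement) and the paired TGACG and ATTGG. They lie at chr17:35262904-35263032 (*H2-D1*, plus strand), chr17:34000349-34000477 (*H2-K1*, minus strand), chr17:35439002-35439129 (*H2-Q7*, plus strand), chr2:122147510-122147648 (*B2m*, plus strand), chr17:35379424-35379552 (*H2-Q4*, plus strand) and chr17:36032737-36032865 (*H2-T23*, minus strand).
H2-D1: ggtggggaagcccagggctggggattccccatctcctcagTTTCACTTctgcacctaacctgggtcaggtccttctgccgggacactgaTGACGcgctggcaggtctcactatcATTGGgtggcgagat
H2-K1: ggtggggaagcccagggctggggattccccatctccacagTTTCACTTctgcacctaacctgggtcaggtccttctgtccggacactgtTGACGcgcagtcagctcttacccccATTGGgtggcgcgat
H2-Q7: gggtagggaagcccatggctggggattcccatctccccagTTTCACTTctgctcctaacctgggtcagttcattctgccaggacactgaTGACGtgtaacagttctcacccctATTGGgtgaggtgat
B2m: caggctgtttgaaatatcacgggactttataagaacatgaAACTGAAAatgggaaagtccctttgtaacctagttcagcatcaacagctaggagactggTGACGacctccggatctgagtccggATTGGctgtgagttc
H2-Q4: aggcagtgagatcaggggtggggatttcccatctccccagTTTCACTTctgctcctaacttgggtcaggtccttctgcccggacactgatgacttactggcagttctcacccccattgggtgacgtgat
H2-T23: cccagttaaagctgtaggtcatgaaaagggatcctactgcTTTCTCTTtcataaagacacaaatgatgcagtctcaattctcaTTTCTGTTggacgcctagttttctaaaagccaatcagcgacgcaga
The interferon element stood 41 bases upstream of TGACG in *H2-D1*, *H2-K1* and *H2-Q7*, and 51 bases upstream in *B2m*. The gap inside the pair was 20 bases in *H2-D1*, *H2-K1* and *B2m* and 19 bases in *H2-Q7*. *H2-Q4* had the interferon element without the pair, and *H2-T23* had 2 matches to the interferon element. These are matches of letters in the reference strain, and binding was not measured.

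None of the 10 genes differed between indole and vehicle mice beyond the spread within the groups. In the quasi-likelihood fit of edgeR, 8 of the 10 had a higher fitted level in indole mice and 2 (*H2-Q7* and *Nlrc5*) a lower one, and the median log2 fold change was 0.11 against 0.00 over all 12653 genes tested. Among all genes, 51.3% were higher in indole mice. An unadjusted *p* below 0.05 was reached by 0 of the 10 genes, against 482 of all genes or 3.81%. After Benjamini–Hochberg adjustment over all genes tested, edgeR called 0 of the 10 and 0% of all genes, and each of the 10 had an adjusted *p* of 0.998. Before adjustment, DESeq2 with default settings, run on all 22535 genes with a read, gave 719 genes below 0.05. On the 12653 genes tested, limma voom gave 564, and neither tool called a gene after adjustment.

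The direction rested on a single indole mouse, G8, for 8 of the 10 genes. This mouse had the highest level of all 14 mice for 9 of the 10 genes, whereas it was the highest mouse for 9.18% of all genes tested. Without G8, all 10 genes had a lower fitted level in indole mice (48.7% of all genes did), and their median was −0.19 on the log2 scale. Of the 10, 3 were then lower with an unadjusted *p* below 0.05 in edgeR, against 2.53% of all genes, and their adjusted *p* values were 0.999. G8 was set aside because earlier results of these data had found it apart for interferon genes. Leaving out the highest mouse of a group lowers that group's level by construction.

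**Figure D1:**
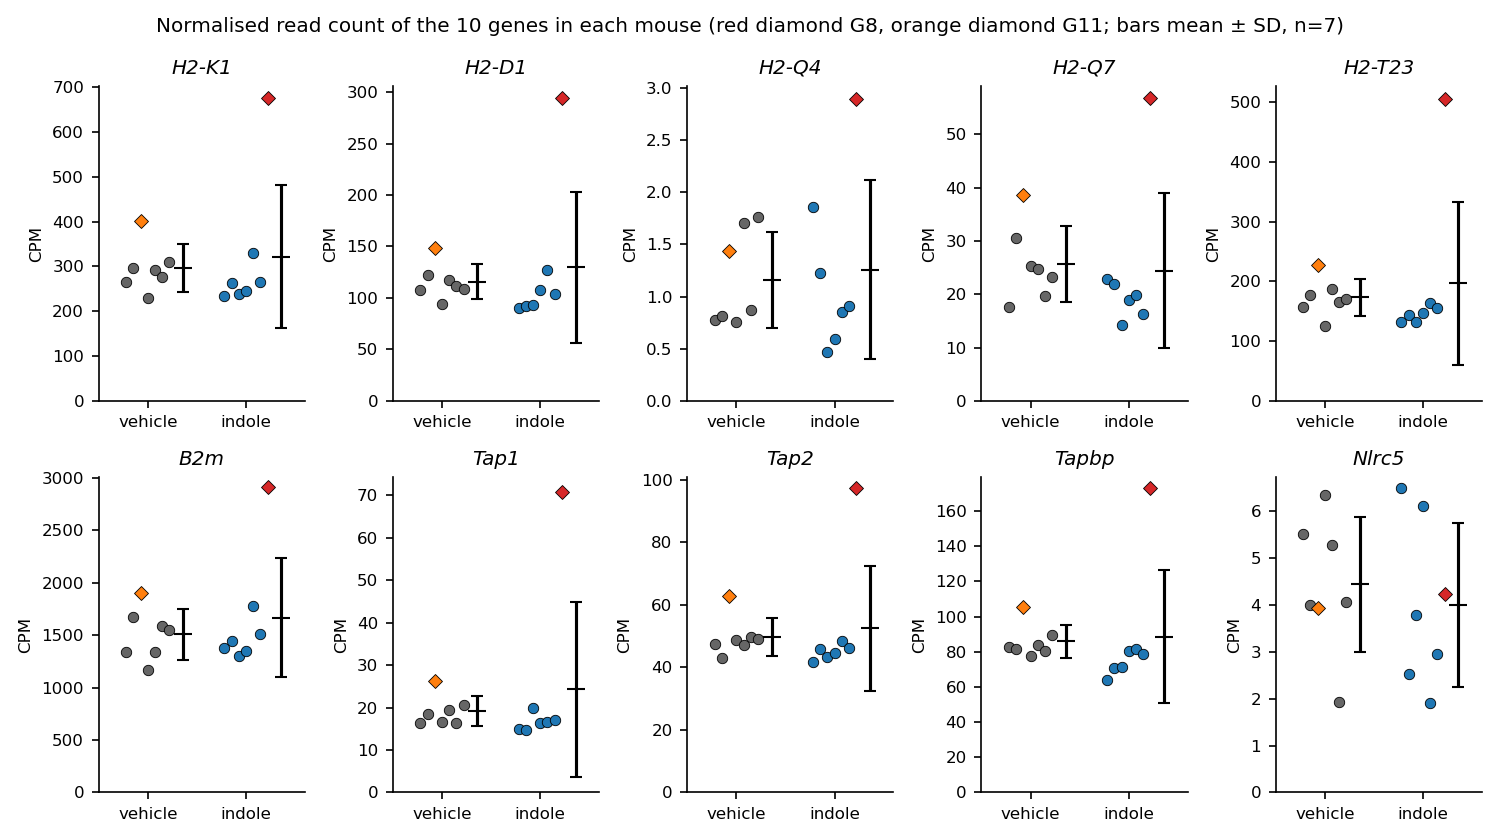
Normalised read count (CPM, linear axis from 0) of each of the 10 genes in each mouse, with vehicle mice in grey, indole mice in blue, G8 as a red diamond and G11 as an orange diamond, and the mean ± SD of each group (*n*=7) as bars. In every panel except that of *Nlrc5* the red diamond lies above all other mice, and the other 6 indole mice overlap the vehicle mice.

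Of the classical heavy chains, which present peptides to cytotoxic T cells, *H2-K1* (ENSMUSG00000061232, chr17:33996017-34000347, minus strand, protein coding) was the more abundant. Its normalised read count was 231 CPM in the lowest, 292 in the median and 402 in the highest vehicle mouse. In indole mice the corresponding values were 235, 263 and 677 CPM. The groups overlapped, and only G8 exceeded the highest vehicle mouse. The means were 296 ± 53.2 CPM in vehicle mice and 322 ± 160 CPM in indole mice (SD, *n*=7 each), and the log2 fold change was 0.12 (SE 0.234, edgeR unadjusted *p*=0.617).

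*H2-D1* (ENSMUSG00000073411, chr17:35262730-35267499, plus strand), the other classical heavy chain, ran from 94.2 through a median of 112 to 149 CPM in vehicle mice. In indole mice it ran from 90.0 through 104 to 294 CPM, again with G8 as the only mouse above the vehicle range. Below that range lay 3 indole mice. The log2 fold change was 0.16 (SE 0.257, edgeR unadjusted *p*=0.538).

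The non-classical heavy chains have narrower roles and little polymorphism. *H2-T23* (ENSMUSG00000067212, chr17:36029773-36032855, minus strand) encodes Qa-1, which presents leader peptides of other class I chains to receptors on natural killer cells. It measured 126, 170 and 227 CPM in the lowest, median and highest vehicle mouse, and 132, 148 and 505 CPM in indole mice. The other 6 indole mice stayed between 132 and 164 CPM, inside the vehicle range. The log2 fold change was 0.19 (SE 0.307, edgeR unadjusted *p*=0.556).

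*H2-Q7* (ENSMUSG00000060550, chr17:35439155-35443773, plus strand), a Qa-2 heavy chain of the Q region, measured 17.7, 24.7 and 38.6 CPM across vehicle mice and 14.2, 19.8 and 56.7 CPM across indole mice. In 6 of the 7 indole mice it lay below the vehicle median, and in 2 below every vehicle mouse. The fitted difference was −0.08 on the log2 scale (SE 0.298, edgeR unadjusted *p*=0.799). *H2-Q4* (ENSMUSG00000035929, chr17:35379617-35385290, plus strand), a further Q region heavy chain, had only 9 to 43 reads per mouse. Its level was 0.758, 0.867 and 1.76 CPM across vehicle mice and 0.473, 0.906 and 2.89 CPM across indole mice. The indole mice were spread more widely, with 2 below and 2 above every vehicle mouse, and the log2 fold change was 0.10 with the widest SE of the 10 (0.366, edgeR unadjusted *p*=0.797).

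*B2m* (ENSMUSG00000060802, chr2:122147686-122153083, plus strand), the gene of the invariant light chain, was the most abundant of the 10 and had 23820 to 43267 reads per mouse. Vehicle mice measured 1166, 1545 and 1896 CPM at the lowest, median and highest, and indole mice 1302, 1440 and 2911 CPM. All indole mice except G8 lay within the vehicle range. The means were 1506 ± 245 CPM and 1667 ± 571 CPM (SD, *n*=7 each), with a log2 fold change of 0.15 (SE 0.167, edgeR unadjusted *p*=0.397).

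*Tap1* and *Tap2* encode the subunits of the TAP transporter, which pumps peptides from the cytosol into the endoplasmic reticulum. *Tap1* (ENSMUSG00000037321, chr17:34187553-34197225, plus strand) measured 16.3, 18.4 and 26.3 CPM across vehicle mice and 14.8, 16.5 and 70.9 CPM across indole mice. The other 6 indole mice lay between 14.8 and 19.9 CPM, and as a fold over their mean the level in G8 was the highest of the 10 genes. The log2 fold change was 0.34 (SE 0.364, edgeR unadjusted *p*=0.369), the largest fitted difference and the smallest *p* of the 10. DESeq2 with default settings, which replace outlying counts, gave −0.19 for *Tap1* (unadjusted *p*=0.0986), and DESeq2 without that replacement gave 0.35.

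*Tap2* (ENSMUSG00000024339, chr17:34203527-34216321, plus strand) measured 43.0, 48.7 and 62.7 CPM across vehicle mice. Across indole mice it measured 41.8, 45.8 and 97.5 CPM. Its 6 other indole mice reached no higher than 48.3 CPM, and all of those lay below the vehicle median. The log2 fold change was 0.08 (SE 0.171, edgeR unadjusted *p*=0.650).

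*Tapbp* (ENSMUSG00000024308, chr17:33915899-33929292, plus strand) encodes tapasin, which bridges the empty class I molecule to TAP. It measured 77.7, 82.5 and 105 CPM across vehicle mice and 63.6, 78.5 and 173 CPM across indole mice. Again 6 of the 7 indole mice lay below the vehicle median, and 3 of them below every vehicle mouse. The log2 fold change was 0.04 (SE 0.192, edgeR unadjusted *p*=0.834). The table's span for *Tapbp* shares 3422 bases on the same strand with that of *Zbtb22*, which had 4133 reads in all against 21317 on *Tapbp*.

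*Nlrc5* (ENSMUSG00000074151, chr8:94434356-94527272, plus strand), the coactivator, had 29 to 134 reads per mouse. It measured 1.93, 4.05 and 6.34 CPM across vehicle mice and 1.90, 3.78 and 6.48 CPM across indole mice. Its groups covered almost the same range, and G8 at 4.24 CPM (63 reads) had rank 6 among the 14 mice. The fitted difference was −0.15 on the log2 scale (SE 0.269, edgeR unadjusted *p*=0.576). It was the only gene of the 10 for which G8 did not stand at the top.

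The mean log2 CPM of the groups was also compared by an exact two-sided permutation test over every division of the 14 mice into groups of 7. Its *p* ran from 0.552 for *H2-Q7* to 0.979 for *H2-T23* over the 10 genes. For *H2-Q4* and *Tapbp* the difference in mean log2 CPM was −0.03 each, opposite in sign to the edgeR fold change.

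Without G8 the same test, over 1716 divisions of 7 and 6 mice, gave an exact permutation *p* of 0.0152 for *Tapbp* and 0.0478 for *H2-Q7*. For the other 8 genes it was 0.0653 or more. The edgeR values without G8 were a log2 fold change of −0.43 (SE 0.162, unadjusted *p*=0.0166) for *H2-Q7*, −0.25 (SE 0.104, unadjusted *p*=0.0264) for *H2-T23* and −0.21 (SE 0.0816, unadjusted *p*=0.0191) for *Tapbp*. These were the 3 genes below 0.05. The remaining 7 ran from −0.24 for *H2-Q4* to −0.05 for *B2m*. When vehicle mouse G11, the highest vehicle mouse for 8 of the 10 genes, was left out together with G8, 9 genes were lower in indole mice (48.1% of all genes were), and *B2m* was the exception. The median was then −0.13. Of the 10 genes, 1 was lower with an unadjusted *p* below 0.05 in that edgeR fit (*H2-Q7*, 0.0323), against 2.33% of all genes.

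**Figure D2:**
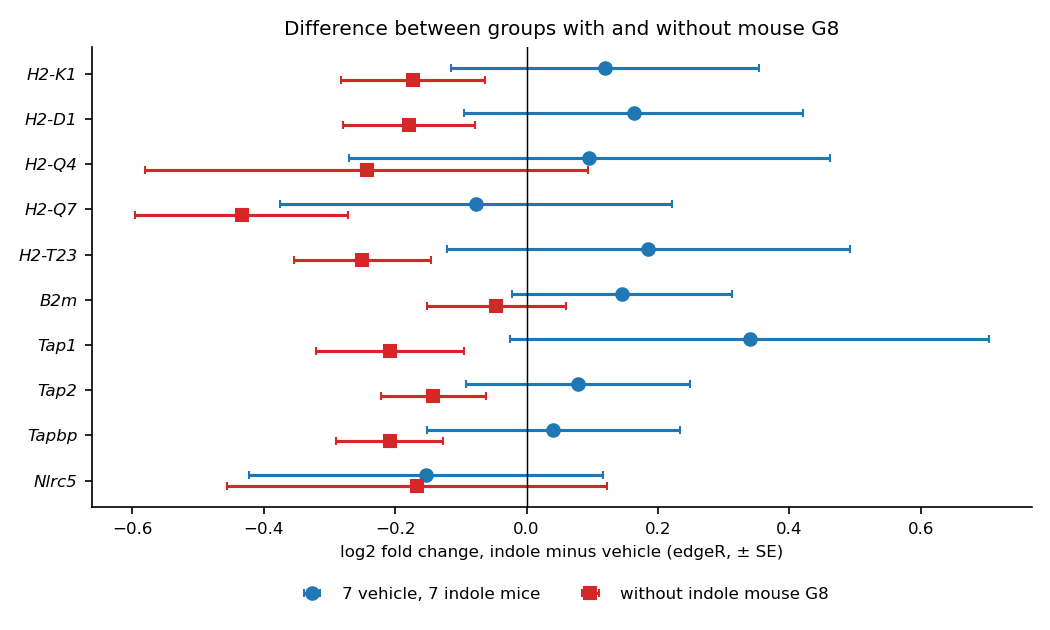
Log2 fold change (indole minus vehicle, edgeR, horizontal bars ± SE) of each gene with all 14 mice (blue circles) and without indole mouse G8 (red squares). With all mice, 8 of the 10 circles lie right of 0 with bars that cross it, and without G8 all 10 squares lie left of 0.

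G8 did not exceed its group by the same amount for each gene. Against the mean of the other 6 indole mice, the normalised read count in G8 was 4.28-fold for *Tap1*, 3.47-fold for *H2-T23* and 2.98-fold for *H2-Q7*. The classical heavy chains followed with 2.87-fold for *H2-D1* and 2.58-fold for *H2-K1*, next to 2.94-fold for *H2-Q4*. The lowest multiples among the 9 were 2.33 for *Tapbp*, 2.16 for *Tap2* and 1.995 for *B2m*, while *Nlrc5* stood at 1.07. On the log2 scale the median excess of G8 over the mean of its 6 group mates was 1.45 for the 10 genes and −0.00 for all genes tested. An excess above 1 was found for 9 of the 10 genes and for 2.97% of all genes. G8 is 1 animal with 1 library, so these values are a description of that mouse.

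**Figure D3:**
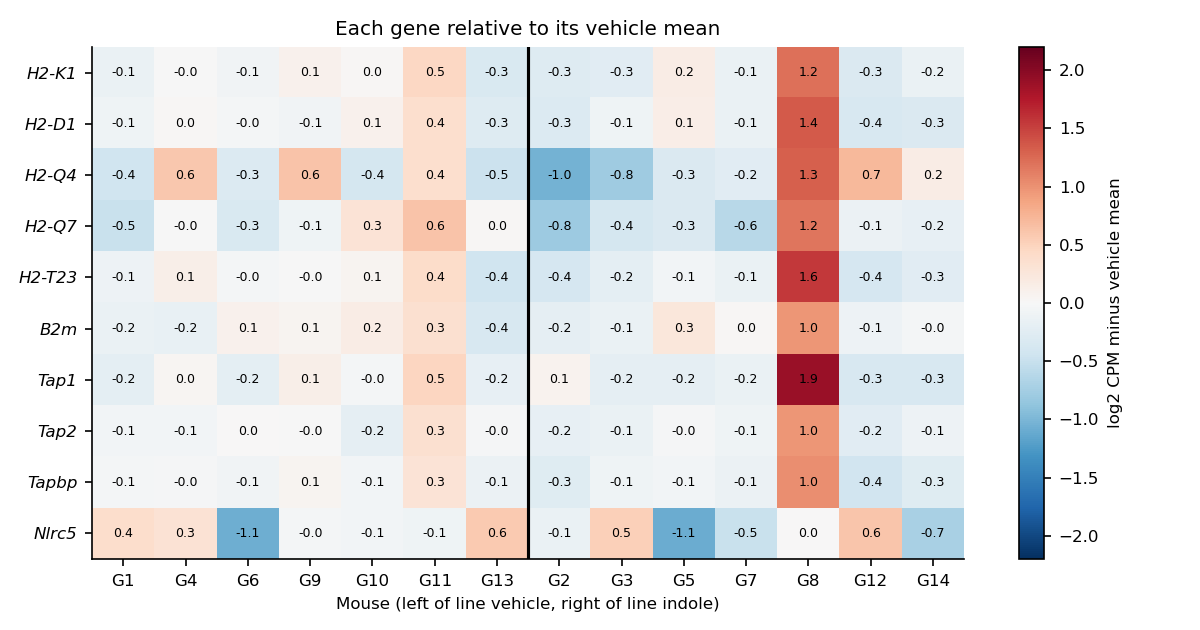
Log2 CPM of each gene in each mouse minus the mean log2 CPM of that gene in vehicle mice, with vehicle mice left and indole mice right of the line. The G8 column is the darkest red for 9 genes, from 0.97 for *B2m* to 1.90 for *Tap1*, and near 0 for *Nlrc5*, and the G11 column is the reddest of the vehicle mice for 8 genes.

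Among vehicle mice, G11 was the highest for 8 of the 10 genes, against 13.4% of all genes tested. The exceptions were *H2-Q4*, where its rank was 3, and *Nlrc5*, where its rank was 6. Its excess over the mean of the other vehicle mice was smaller than that of G8, from 0.35 for *Tapbp* to 0.73 for *H2-Q7* on the log2 scale among those 8 genes. Its Kupffer cell and macrophage markers summed to 298 CPM, also the highest value of the vehicle group. The same held for its B and plasma cell markers (5.98 CPM) and neutrophil markers (2.49 CPM), while its sinusoidal endothelial markers (77.2 CPM) were the lowest of that group. The vehicle group thus also held a mouse in which most of the 10 genes stood at the top together.

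Compared per kilobase of exon, the levels of the 10 genes spanned several orders of magnitude in every mouse. The median over 14 mice was 1714 CPM per kb for *B2m*, with a range of 1356 to 3385. The heavy chains came next, with 92.2 CPM per kb for *H2-K1* (78.5 to 230.4), 55.6 for *H2-T23* (43.6 to 175) and 42.1 for *H2-D1* (34.9 to 114). The ranges of these heavy chains overlapped across mice, but within every mouse their order was the same. *Tapbp* (22.3 CPM per kb), *Tap2* (12.5), *H2-Q7* (5.25) and *Tap1* (3.06) formed the middle of the order. *Nlrc5* (0.474) and *H2-Q4* (0.341) were lowest, and their ranges of 0.224 to 0.763 and 0.182 to 1.11 CPM per kb overlapped.

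Light chain RNA exceeded the summed RNA of the 5 heavy chain genes among the 10 in every mouse. That sum is not all heavy chain RNA of the liver, because it leaves out other heavy chains such as *H2-Q10*. *H2-Q10* alone had 3641 to 4667 CPM in vehicle mice and 4529 CPM in G8, more than *B2m* had in CPM. Per kb, *B2m* was 7.19 to 9.24 times the heavy chain sum in vehicle mice (median 8.23) and 8.65 to 9.64 times in the 6 indole mice other than G8 (median 9.26). In G8 it was 6.34 times, the lowest of all 14 mice, where the heavy chain sum was 534 CPM per kb against 167 to 223 in the other indole mice and 165 to 283 in vehicle mice. *H2-K1* made up 43.2% of the heavy chain sum in G8 and 46.0% to 50.3% in the other mice.

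**Figure D4:**
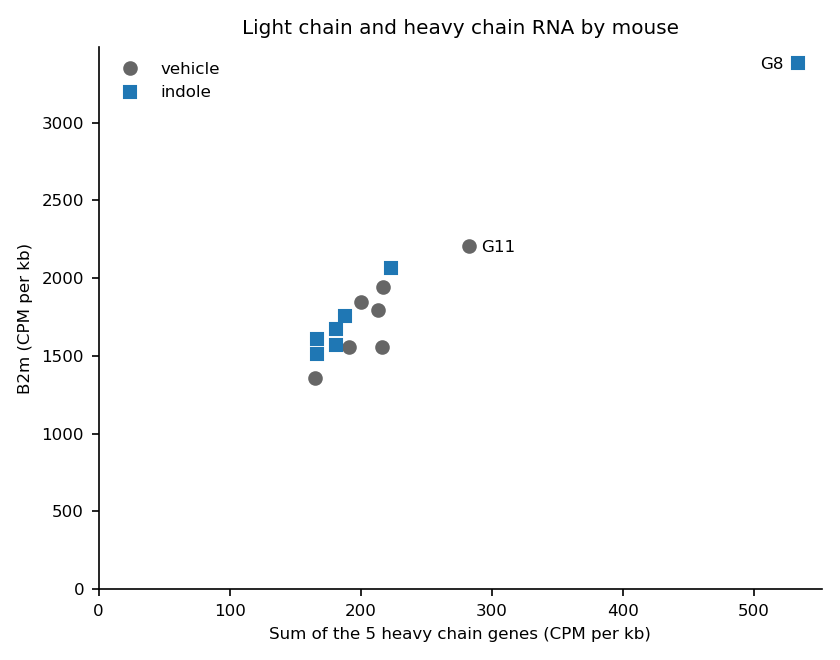
Level of *B2m* against the sum of the 5 heavy chain genes in each mouse, both in CPM per kb on linear axes from 0, with vehicle mice as circles and indole mice as squares. Of the 14 points, 12 lie together between 165 and 223 on the horizontal axis, G11 lies at 283 and G8 at 534.

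A pair of ratios within the pathway were compared between groups. The ratio of *H2-K1* to *H2-D1* had a median of 2.48 in vehicle mice (2.43 to 2.85) and 2.57 in indole mice, with 2.30 in G8. The ratio of *Tap1* to *Tap2* had a median of 0.414 in vehicle mice (0.328 to 0.427) and 0.367 in indole mice. For the latter G8 stood at 0.727, against 0.324 to 0.457 in the other indole mice. Neither mean log2 ratio differed beyond the spread between mice, with differences of −0.01 (exact permutation *p*=0.848) and 0.08 (exact permutation *p*=0.750), or 0.848 for both after adjustment over the 2 ratios.

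The genes that varied most like the average of the 10 were found by the root mean square difference, over the 14 mice, between a gene's centred log2 CPM and the centred average of the 10. They were *Psme1* (0.135), a subunit of the proteasome activator, *Bst2* (0.136), which encodes the antiviral protein tetherin, *Parp12* (0.154), *H2-T22* (0.170), another non-classical heavy chain, and *Ifitm3* (0.172), an antiviral membrane protein. The median over the other genes tested was 0.435. Because G8 dominates such a measure, the ranks of these 5 genes without G8 were 46, 51, 7, 423 and 520. Among the 10 themselves *Tapbp* (0.120) lay closest to their average and *H2-Q4* (0.430) and *Nlrc5* (0.615) farthest from it.

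Around these 10 genes, the other steps of class I presentation were followed in lists of genes, none of which held a gene with an adjusted *p* below 0.05 in edgeR. Of 14 other class I and class I-like heavy chains tested, 9 were higher and 5 lower in indole mice, and the median was 0.04 on the log2 scale. *H2-Q10*, a secreted class I chain made by hepatocytes, was the most abundant of them at 3641 to 4667 CPM in vehicle mice, 3743 to 4374 CPM in the other indole mice and 4529 CPM in G8, inside the vehicle range. Neither *Azgp1* (1319 CPM in G8), an MHC-like adipokine, nor *Cd1d1* (198 CPM in G8), the lipid-presenting CD1d, left its vehicle range there. Of the 14, however, 6 were highest in G8 among all mice, and the median excess of G8 over the other indole mice was 0.39 on the log2 scale. *H2-T22* had 258 CPM in G8 against 83.7 to 117 in the other indole mice and at most 158 in vehicle mice. *H2-T24* had 9.15 CPM in G8 against at most 6.31 in the other mice, and *H2-Q6*, a Q region heavy chain, 23.6 CPM against at most 20.5. *H2-Q1* was the only gene of this list with an unadjusted *p* below 0.05 (log2 fold change −0.53, edgeR unadjusted *p*=0.0486).

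Of 19 genes for peptide trimming, chaperones and loading, 14 were higher and 5 lower (median 0.05), and 0 had an unadjusted *p* below 0.05. The most abundant were the chaperones *Calr* (log2 fold change 0.05), *Hspa5* (0.17) and *Hsp90b1* (0.02). The list for the immunoproteasome and its activator, which cut proteins into peptides suited to class I, held 10 genes. It also included the constitutive subunits *Psmb5*, *Psmb6* and *Psmb7* and the assembly factor *Pomp*. All 10 were higher in indole mice (median 0.15), and 5 of them were lower without G8 (median −0.01 over the 10). Those 5 were *Psmb8*, *Psmb9*, *Psmb10*, *Psme1* and *Psme2*. The interferon-inducible catalytic subunit *Psmb8* had 165 CPM in G8, 28.4 to 41.3 in the other indole mice and 33.3 to 57.2 in vehicle mice. *Psmb9*, whose span overlaps that of *Tap1* by 212 bases on the opposite strand, had 85.6 CPM in G8 and 19.2 to 22.6 in the other indole mice. Without G8 these were the 2 genes of the list with an unadjusted *p* below 0.05 in edgeR (0.0442 and 0.0383), at log2 fold changes of −0.26 and −0.23. The abundant constitutive subunits *Psmb7* (158 CPM in G8) and *Psmb6* (147 CPM in G8) stayed within the range of the other indole mice, and the assembly factor *Pomp* (155 CPM in G8) lay above 103 to 140 CPM in those mice.

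**Figure D5:**
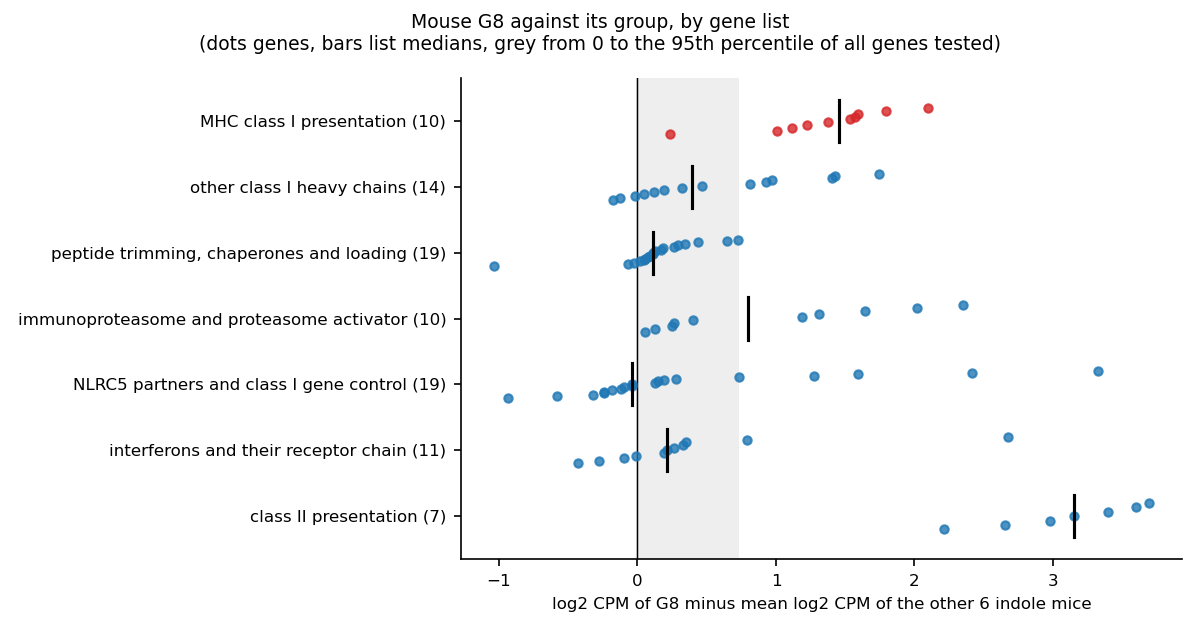
Log2 CPM of G8 minus the mean log2 CPM of the other 6 indole mice for each tested gene (dots) of the 10 class I genes (red) and of 6 related lists (blue), with list medians as bars and a grey band from 0 to 0.73, the 95th percentile over all genes tested. The median is 1.45 for the 10 genes, 0.79 for the immunoproteasome list, 3.15 for class II presentation and between −0.04 and 0.39 for the other lists.

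Of 19 tested regulators of class I genes, 8 were higher and 11 lower in indole mice (median −0.00). The 2 with an unadjusted *p* below 0.05 were *Atf1* (log2 fold change −0.25, edgeR unadjusted *p*=0.00218), a CRE-binding partner, and *Irf2* (−0.21, edgeR unadjusted *p*=0.0438), an interferon regulatory factor. *Irf1*, which binds interferon response elements, had 32.8 CPM in G8, above the 16.2 to 28.1 CPM of the other indole mice. It stayed within the vehicle range of 19.7 to 33.5 CPM. The abundant *Stat2* (43.2 CPM in G8) and *Rela* (34.2 CPM) also stayed within their vehicle ranges. Of the 19, however, 4 were highest in G8 among all mice, though the median excess of G8 over the other indole mice was −0.04 on the log2 scale. *Irf7* had 110 CPM in G8 against 9.72 to 13.3 in the other indole mice and at most 74.2 in vehicle mice. *Irf9* had 42.6 CPM in G8 against 10.7 to 17.4 and at most 32.7.

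Of 11 tested genes for interferons, their receptors and signalling, 3 were higher and 8 lower in indole mice (median −0.07), and *Ifnar1*, a type I interferon receptor chain, was the 1 with an unadjusted *p* below 0.05 (log2 fold change −0.28, edgeR unadjusted *p*=0.0397). *Ifng* had 1 read over all 14 mice and none in G8, too few to follow it at this depth. Of the receptors that read class I molecules only *Pirb* had enough reads to be tested (log2 fold change −0.01). *Cd8a*, the coreceptor of cytotoxic T cells, had 2 reads in G8 and 17 in all.

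Of 7 tested genes of class II presentation, the related pathway that shows peptides to helper T cells, all were higher in indole mice (median 0.61) and all were lower without G8 (median −0.54). G8 had the highest level of all 14 mice for 7 of 7. *Cd74*, the invariant chain, had 279 CPM there against 21.03 to 44.6 in the other indole mice, and *H2-Eb1* 75.2 CPM against 4.003 to 8.35. Of the 131 reads on *Ciita*, the class II coactivator related to *Nlrc5*, 37 came from G8.

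Markers of other cell types moved with the class I genes in G8. The 12 Kupffer cell and macrophage markers summed to 548 CPM in G8, 150 to 249 CPM in the other indole mice and 125 to 298 CPM in vehicle mice, and 10 of the 12 were highest in G8 among all 14 mice, *Clec4f* at 90.4 CPM and *Cd5l* at 129 CPM. The 14 T and natural killer cell markers summed to 13.6 CPM in G8, 1.46 to 3.47 CPM in the other indole mice and 1.42 to 5.05 CPM in vehicle mice, with 65 reads on *Cd4*, 43 on *Gzmb* and 0 on *Cd3e* and *Cd8b1*. The B and plasma cell markers (5.45 CPM in G8), dendritic cell markers (4.78 CPM), neutrophil markers (1.95 CPM) and sinusoidal endothelial markers (126 CPM) did not leave the ranges of the other 13 mice. Erythroid markers were lower in G8 (263 CPM) than in the other indole mice (274 to 1094 CPM). Of these, 5 of 5 tested were higher in indole mice with an unadjusted *p* below 0.05, against 194 of all 12653 genes. An example was *Hba-a1* (log2 fold change 0.99, edgeR unadjusted *p*=0.0209). After adjustment 0 of the 5 were below 0.05. The part of these cell types in the class I levels was not tested.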

How the data were processed

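The deposited values are raw counts of reads per gene, which the authors made from uniquely mapped reads after HISAT2 alignment to GRCm38 (Ensembl 102). The counting tool is not given in the sources used here. All 14 count columns were used, and groups came from the sample labels. From the deposited counts, TMM-normalised CPM were computed, and the groups were compared with edgeR 4.0.16 in R 4.3.3 (filterByExpr with a minimum count of 10, robust quasi-likelihood fit), without covariates, on 12653 of the 22535 genes with a read. Adjustment was by Benjamini–Hochberg over the genes tested. Standard errors were derived from the F statistic, as the absolute log2 fold change over its square root. Log2 CPM (prior count 2) and log2 ratios were compared with exact two-sided permutation tests in Python 3.11 with numpy 2.4.6. Totals of 15197498 to 21060376 reads per mouse leave a large counting error on *H2-Q4* and *Nlrc5*, and intervals for it were not computed. The fits across genes were tested on simulated data.

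The 10 genes, the gene lists and the mice to leave out were chosen with earlier results of these data known. The text names, by rule, the 10 genes, in each pathway list the 3 genes with the highest mean CPM and those with an unadjusted *p* below 0.05, the top gene and sum of each marker list, 8 genes chosen by name, and the 5 genes most like the average of the 10. Other genes were named after their values were seen. The value of 1 gene that met the rule is not reported here. The alternatives were DESeq2 1.42.0 with and without replacement of outlier counts, scaling by RLE or by the upper quartile, testing without the filter, a non-robust fit, limma 3.58.1 voom with sample quality weights, and leaving out each mouse, or G8 and G11 together. Promoter sequences came from RefSeq on GRCm38.p6.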

Additional observations from a re-analysis of the deposited data

Results flagged for a closer look

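In groups of 7 mice, the gap between the highest or lowest mouse and its neighbour was divided by the range of the group and compared with Dixon's 95% critical value, a limit that chance passes in about 1 of 20 groups. Of 44 groups compared, 14 passed it, and 12 of these concerned indole mouse G8. The groups share the same mice, and the ratios share genes with the single values, so the 12 are not separate findings. G8 was also known from earlier results of these data to stand apart. For log2 CPM in indole mice, G8 was highest with a gap of 0.838 of the range for *H2-T23*, 0.828 for *Tap2*, 0.813 for *Tap1*, 0.751 for *Tapbp*, 0.710 for *H2-D1*, 0.680 for *H2-K1*, 0.661 for *H2-Q7* and 0.614 for *B2m*. The same mouse was highest for the ratio of *Tap1* to *Tap2* (0.574), the summed Kupffer cell and macrophage markers (0.607) and the summed T and natural killer cell markers (0.613), and lowest for the ratio of *B2m* to the heavy chains (0.742). For *H2-Q4* and *Nlrc5*, the genes with the fewest reads, G8 did not pass the limit. In vehicle mice, G11 was highest for *Tap2* (0.615) and G6 lowest for *Nlrc5* (0.593). The cause of these values was not tested.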

How the results depend on the processing

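No setting gave any of the 10 genes an adjusted *p* below 0.05, the range being 0.855 to 0.9999. Leaving out each mouse in turn, 0 to 3 of the 10 genes had an unadjusted *p* below 0.05 and 0 to 9 were higher in indole mice. The 3 and the 0 came without G8, and the 9 without G2, G7 or G11. The edgeR log2 fold changes then ran from −0.17 to 0.21 for *H2-K1*, −0.18 to 0.24 for *H2-D1*, −0.24 to 0.24 for *H2-Q4*, −0.43 to 0.049 for *H2-Q7*, −0.25 to 0.27 for *H2-T23*, −0.046 to 0.21 for *B2m*, −0.21 to 0.43 for *Tap1*, −0.14 to 0.14 for *Tap2* and −0.21 to 0.11 for *Tapbp*. The lowest value came without G8 in each case. *H2-Q7* changed sign without G2, G7 or G11, and *H2-Q4* also without G12. *Nlrc5* was lower in indole mice throughout, from −0.31 without G12 to −0.036 without G5. Differences in mean log2 CPM ran from −0.16 to 0.11 for *H2-K1*, −0.18 to 0.11 for *H2-D1*, −0.25 to 0.14 for *H2-Q4*, −0.23 to 0.090 for *H2-T23*, −0.037 to 0.16 for *B2m*, −0.19 to 0.18 for *Tap1*, −0.13 to 0.083 for *Tap2* and −0.21 to 0.033 for *Tapbp*. The log2 ratio of *H2-K1* to *H2-D1* ran from −0.039 to 0.017 and that of *Tap1* to *Tap2* from −0.061 to 0.13.

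Without G8 and G11 together, 1 gene had an unadjusted *p* below 0.05 and 1 was higher in indole mice, with log2 fold changes of −0.083 for *H2-K1*, −0.11 for *H2-D1*, −0.19 for *H2-Q4*, −0.17 for *H2-T23*, −0.11 for *Tap1*, −0.076 for *Tap2* and −0.15 for *Tapbp*. limma voom with sample quality weights gave −0.094 for *H2-Q4* and −0.055 for *Tapbp*, and DESeq2 with default settings −0.19 for *Tap1*. The causes were not tested. Without the filter on low counts, 1336 of 22535 genes had an unadjusted *p* below 0.05. The few reads of *H2-Q4* and *Nlrc5* limit what could be seen for them. No paired analysis was possible because the labels give no number shared between the groups.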
